A study of Mus musculus with 6 samples.

Results

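The genes described here are 10 members of mouse arginine, nitric oxide and polyamine metabolism, taken by symbol from a table of 45777 genes: Arg1, Arg2, Nos2, Odc1, Azin1, Oaz1, Sat1, Srm, Sms and Amd1. All 10 symbols were found, each in 1 entry. RNA was measured in bone marrow neutrophils of the C57BL/6 strain (wild type), the marrow having been separated on a Percoll density gradient. In 3 libraries the cells were kept with prostaglandin E2 (PGE2, 10 µM), which signals through G protein-coupled receptors, and in the other 3 with DMSO (vehicle). Both groups were collected after 24 h, the series' design text calls the libraries of a group biological replicates, and their age, any pooling of animals and what was replicated are not given. The p-values below therefore measure the spread between these libraries.

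Arginine is split by the arginases into urea and ornithine, or is turned by the nitric oxide synthases into nitric oxide and citrulline. Ornithine feeds the polyamines putrescine, spermidine and spermine, small positively charged molecules that cells need for growth and for translation. Myeloid cells are known for using arginase and inducible nitric oxide synthase to change the arginine available to neighbouring cells.

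The libraries held 42091346 to 56238941 reads assigned to genes and 18242 to 19511 genes with a read. Genes with at least 10 reads in at least 3 libraries were tested, which left 15947, and a gene was called changed at an adjusted p under 0.05 in edgeR's quasi-likelihood test. Levels are given as CPM (read counts scaled to a common library size by edgeR's TMM) for comparing libraries, and as TPM as deposited, which account for gene length, for comparing genes. The neutrophil genes S100a8 and S100a9 were among the most abundant, averaging 81330 and 129600 TPM with PGE2 and 77800 and 120400 TPM with vehicle. The summed level of 8 neutrophil markers was 231700 to 248700 TPM with PGE2 and 231900 to 241300 TPM with vehicle. S100a8 and S100a9 made up most of that sum, 4 of the 8 were lower with PGE2, and the median log2 fold change of the 8 was -0.61. Transcripts of other cell types were present, and some of them differed between the groups. The 8 red cell markers took 1.63% to 5.0% of reads with PGE2 and 0.439% to 1.92% with vehicle, none of the 8 passed the test, and all 8 passed as higher once replicate number was added to the fit (the replicate block). Of 4 eosinophil markers 3 were lower, with summed levels of 83.5 to 156 TPM with PGE2 and 214.5 to 373 TPM with vehicle. The remaining marker, Ccr3, did not pass, at a log2 fold change of 0.35 with all PGE2 libraries above all vehicle libraries in CPM. Of 4 B cell markers 3 were higher, with summed levels of 501 to 844 TPM with PGE2 and 358 to 477 TPM with vehicle. Of 8 macrophage and monocyte markers 1 was lower and none was higher, with summed levels of 97.6 to 124.5 TPM with PGE2 and 147.5 to 164 TPM with vehicle. Of 4 markers of cycling cells and progenitors none passed, with summed levels of 50.6 to 74.4 TPM with PGE2 and 49.2 to 92.8 TPM with vehicle. No gene of these marker lists was at 0 in every library. In such bulk samples, fewer cells of a type and less RNA per cell cannot be told apart.

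The PGE2-treated samples had more mRNA of the mitochondrial arginase (Arg2) and of the enzyme that opens polyamine synthesis (Odc1). They also had more mRNA of Azin1, whose protein shields this enzyme, and of Amd1, whose enzyme supplies the building block for longer polyamines. Which cells of these bulk samples carried the differences was not tested. Odc1 differed the most, 2.84-fold, and Arg2 and Azin1 each differed by about 1.8-fold (1.78 and 1.79). The synthases for spermidine (Srm) and spermine (Sms) did not pass, and neither did antizyme (Oaz1) or the polyamine acetylase (Sat1). Cytosolic arginase (Arg1) and inducible nitric oxide synthase (Nos2) were barely detected and could not be tested. Of the 8 genes tested, 4 rose with PGE2, none fell and 4 did not pass, where 10.3% of all genes tested rose, 14.5% fell and 24.7% passed in either direction. The median log2 fold change of the 8 was 0.44, against 0.04 over all genes tested. In 6 of the 8, every PGE2 library was above every vehicle library in CPM, which held for 20.5% of all genes tested. The members and all gene lists were chosen with earlier results of these data known, so these comparisons are a description. None of the 8 was tested because of 1 group alone, since each had at least 105 reads in every library.

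**Figure D1:**
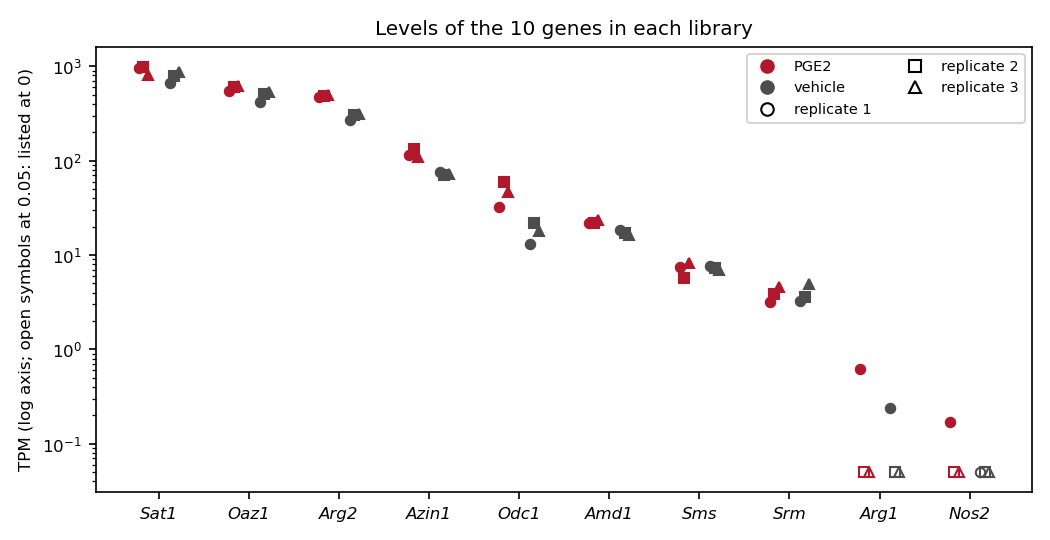
Level of each gene in TPM on a log axis, with a point for each PGE2 and each vehicle library, and open symbols at 0.05 for libraries listed at 0. Sat1 has the highest mean in both groups (913 and 773 TPM), and Arg1 and Nos2 are at 0 in most libraries.

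By length-adjusted level, the order was the same in both groups: Sat1, Oaz1, Arg2, Azin1, Odc1, Amd1, Sms, Srm, Arg1 and Nos2. Mean levels with PGE2 ran from 913 ± 100.1 TPM for Sat1 to 3.87 ± 0.673 TPM for Srm among the genes tested, and those with vehicle from 773 ± 109 TPM to 3.90 ± 0.879 TPM (SD, n = 3 each). Neighbours in this order had ranges that did not overlap, with these exceptions. Odc1 and Amd1 overlapped with vehicle, where they averaged 17.6 ± 4.5 and 17.2 ± 1.01 TPM, and were apart with PGE2, where they averaged 46.0 ± 13.4 and 22.3 ± 0.924 TPM (SD, n = 3). Arg1 and Nos2 overlapped in both groups. The 10 genes summed to 2105 to 2285 TPM with PGE2 and 1466 to 1840 TPM with vehicle.

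Arginine is split by 2 arginases, and nearly all arginase mRNA in these samples was Arg2. Arg2, the mitochondrial form (gene 11847, chr12:79130788-79156301, plus strand, mm10), had 395, 475 and 405 CPM in the PGE2 libraries, against 203, 259 and 254 CPM in the vehicle libraries. All 3 PGE2 libraries were above all 3 vehicle libraries, and the PGE2 member of each numbered pair was higher, by 0.96, 0.87 and 0.67 on the log2 scale. The means were 425 ± 43.2 CPM with PGE2 and 239 ± 31.4 CPM with vehicle (SD, n = 3 each). This was a log2 fold change of 0.83 ± 0.12 (SE), with an adjusted p of 0.00192 in edgeR's test, and its adjusted p stayed at 0.00902 or below under all 15 alternatives. Arg2 overlaps Vti1b and Gm40462 on the opposite strand, and no source used here says whether reads were counted by strand.

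Arg1, the cytosolic arginase that is a common mark of suppressive myeloid cells (gene 11846, chr10:24915207-24927470, minus strand), had 28, 0 and 0 reads with PGE2 and 9, 0 and 0 reads with vehicle. The reads thus came only from replicate 1 of each group, at 0.554 CPM with PGE2 and 0.196 CPM with vehicle. A count of 0 allows up to 0.0574 and 0.0494 CPM in the other PGE2 libraries and up to 0.0748 and 0.0580 CPM in the other vehicle libraries (3 reads, counting error only). The gene shares its position with Gm40616 on the opposite strand. In the libraries with Arg1 reads, the level of Arg2 in TPM was 766 times that of Arg1 with PGE2 and 1130 times with vehicle. With 0.1 TPM added to both genes in every library, the log2 ratio of Arg2 to Arg1 was 11.29 ± 1.67 with PGE2 and 10.93 ± 1.12 with vehicle (SD, n = 3 each). In the 4 libraries with no Arg1 read this ratio is set by Arg2 and the added 0.1 TPM alone, so the difference of 0.36 (0.59 with 1 TPM added) says nothing of Arg1. It was -0.12 without PGE2 replicate 2 or PGE2 replicate 3 and -0.29 without vehicle replicate 1.

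Nos2, the inducible nitric oxide synthase (gene 18126, chr11:78920787-78960226, plus strand), had 22, 0 and 0 reads with PGE2 and no read in any vehicle library. The 22 reads of PGE2 replicate 1 were 0.435 CPM, and the counts of 0 in the vehicle libraries allow up to 0.0655, 0.0748 and 0.0580 CPM. The Nos2 signal therefore rests on 1 library of 6. Replicate 1 of each group is also the one in which Arg1 was detected.

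**Figure D2:**
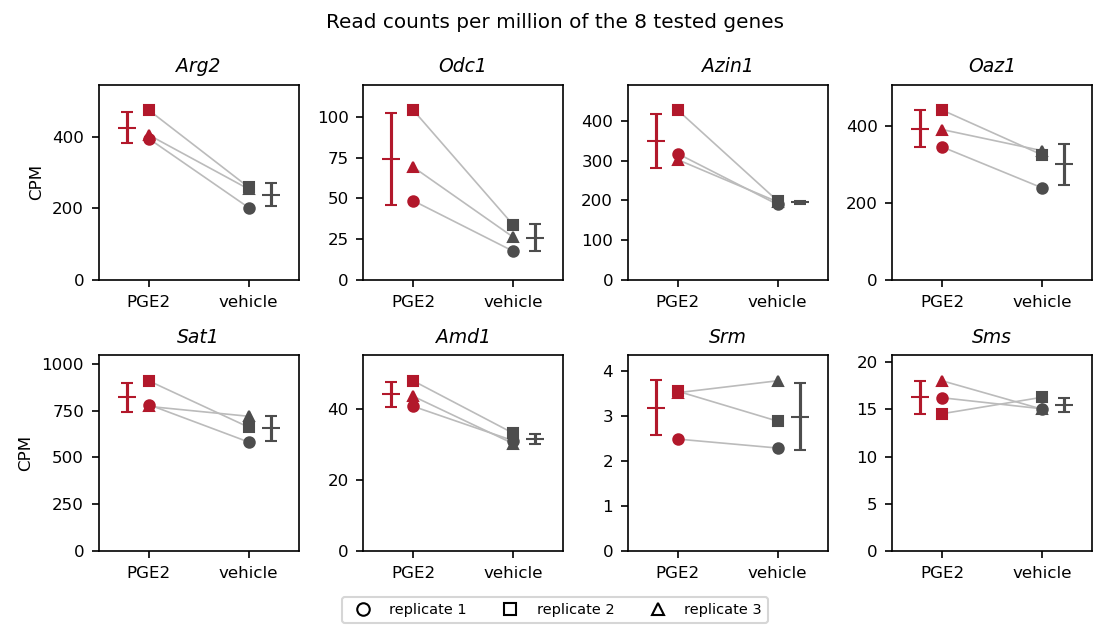
Level in CPM of each of the 8 genes tested, 1 panel for each gene with its own linear axis from 0, with a point for each library, lines joining libraries of the same replicate number, and the mean and SD of each group (n = 3) beside the points. The PGE2 points lie above all vehicle points for Arg2, Odc1, Azin1, Oaz1, Sat1 and Amd1, and the groups overlap for Srm and Sms.

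Ornithine decarboxylase turns ornithine into putrescine and is the step at which polyamine synthesis is mainly controlled. Its gene Odc1 is a classical target of growth signals and of cyclic AMP, the messenger that PGE2 raises through its EP2 and EP4 receptors, so up to 250 bases before its start are shown here with those of Amd1 and Oaz1. They are RefSeq's for GRCm38.p6, each written on the gene's own strand, at chr12:17544623-17544807 (plus) for Odc1, chr10:40302189-40302438 (minus) for Amd1 and chr10:80826406-80826655 (plus) for Oaz1. RefSeq's start of Odc1 lies 65 bases inside the gene as the deposited table positions it, so the Odc1 sequence ends before the deposited start, after 185 bases. Capitals mark the letters TGACG, the core of the cyclic AMP response element, on either strand (CGTCA where it lies on the other one).
Odc1: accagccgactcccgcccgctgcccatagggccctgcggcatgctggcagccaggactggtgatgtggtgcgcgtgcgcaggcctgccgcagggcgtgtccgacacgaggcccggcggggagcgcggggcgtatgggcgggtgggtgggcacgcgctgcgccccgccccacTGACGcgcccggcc
Amd1: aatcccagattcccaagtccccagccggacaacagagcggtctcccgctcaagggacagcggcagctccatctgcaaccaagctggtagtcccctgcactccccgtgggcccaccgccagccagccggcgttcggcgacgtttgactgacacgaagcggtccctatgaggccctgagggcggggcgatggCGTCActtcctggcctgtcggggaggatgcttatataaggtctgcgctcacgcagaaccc
Oaz1: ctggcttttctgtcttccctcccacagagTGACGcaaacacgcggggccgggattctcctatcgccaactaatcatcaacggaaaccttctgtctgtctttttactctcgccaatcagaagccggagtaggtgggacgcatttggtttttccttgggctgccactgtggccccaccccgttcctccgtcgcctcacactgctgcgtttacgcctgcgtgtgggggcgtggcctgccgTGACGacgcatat
TGACG lay 79 bases before RefSeq's start of Odc1 (14 before the deposited one), 60 bases before that of Amd1 and 221 and 13 bases before that of Oaz1. It was not in the windows of Sat1 and Sms, nor in those of the pathway genes Smox and Slc3a2 described further on. The Slc3a2 window, and a second window of Sms, lay wholly inside the gene as deposited. The bases before the deposited start of Slc3a2 were therefore not searched. Over all 32851 promoter windows of 300 bases (250 before and 50 after a start), 20.8% hold TGACG on either strand, so its presence is common. The full element TGACGTCA, which contains it and is held by 1.79% of windows, was in none of the windows of the 5 genes with an entry, which are Odc1, Oaz1, Sat1, Sms and Amd1. The letters CACGTG, an E-box that 7.15% of windows hold, were in a window of Sms. For Arg1, Arg2, Nos2, Azin1 and Srm no window was used here.

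Odc1 (gene 18263, chr12:17544808-17551502, plus strand) had 48.6, 104 and 69.2 CPM with PGE2, against 17.8, 33.9 and 26.4 CPM with vehicle. The gene overlaps LOC115488064 on the same strand, and no source used here says how reads were divided between them. Every PGE2 library was above every vehicle library, replicate 2 was the highest and replicate 1 the lowest in both groups, and the paired log2 differences were 1.45, 1.62 and 1.39. The means were 74.0 ± 28.0 CPM with PGE2 and 26.0 ± 8.08 CPM with vehicle (SD, n = 3 each). The log2 fold change was 1.51 ± 0.32 (SE), with an adjusted p of 0.0137 by edgeR, and Odc1 ranked 381 of the 15947 genes tested by fold change. Without vehicle replicate 3 the adjusted p was 0.0554 at a log2 fold change of 1.52, the only 1 of the 15 alternatives in which Odc1 did not pass; adjusted p otherwise ranged up to 0.0306. The red cell markers moved with it: they took 1.63%, 5.0% and 2.55% of reads in the PGE2 libraries, and 0.439%, 1.92% and 1.14% in the vehicle libraries, each in the order of replicates 1 to 3, so they too were highest in replicate 2 and lowest in replicate 1 of each group. Their part in the Odc1 result was not tested. Among 11387 genes with a mean of at least 100 reads, the log2 CPM of Rabgef1 (r = 0.9995), Slc30a9 (r = 0.999) and Usp28 (r = 0.9987) followed that of Odc1 most closely over the 6 libraries, by Pearson correlation. These 6 points share the 2 groups and the library effects just given, so the r values are a description.

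Antizyme binds ornithine decarboxylase and sends it to the proteasome, and antizyme inhibitor, a relative of the decarboxylase that has no enzyme activity, takes antizyme away from it. Azin1, the antizyme inhibitor (gene 54375, chr15:38487430-38519294, minus strand), had 318, 427 and 302.5 CPM with PGE2, against 189.9, 199 and 196.5 CPM with vehicle. The groups did not overlap, and the vehicle libraries lay close together while the PGE2 libraries spread. The means were 349 ± 67.9 CPM with PGE2 and 195 ± 4.74 CPM with vehicle (SD, n = 3 each). Azin1 rose by a log2 fold change of 0.84 ± 0.13 (SE), with an adjusted p of 0.00275 by edgeR and at most 0.0152 under the 15 alternatives.

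Oaz1 (gene 18245, chr10:80826656-80829290, plus strand), which encodes antizyme, had 346, 442 and 391 CPM with PGE2, against 239.8, 325 and 336 CPM with vehicle. All PGE2 libraries were above all vehicle libraries, although the lowest of the PGE2 libraries was only just above the highest of the vehicle libraries. The log2 fold change was 0.39 ± 0.15 (SE), with an adjusted p of 0.0884 by edgeR, so it did not pass. With the replicate block in the edgeR fit it did pass, at 0.40 and an adjusted p of 0.00634, and adjusted p ranged from 0.00634 to 0.242 over the alternatives. Antizyme protein also depends on a shift of the reading frame during translation that polyamines promote, which read counts do not measure. The site is shown because it is the part of the Oaz1 mRNA that senses polyamines, beside that of the paralog Oaz2. The sequences are of mouse GENCODE M21 transcripts, on the mRNA strand of genes on chromosomes 10 and 9, and capitals mark the stop codon of the first frame at which the ribosome shifts by 1 base.
Oaz1: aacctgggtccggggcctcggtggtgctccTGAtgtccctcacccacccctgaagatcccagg
Oaz2: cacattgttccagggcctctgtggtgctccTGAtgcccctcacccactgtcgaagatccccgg
The paralogs have 51 of these 63 bases in common, and the stop codon follows the same letters in both. Oaz2 itself averaged 107 ± 13.8 CPM with PGE2 and 85.1 ± 2.81 CPM with vehicle (SD, n = 3 each), at an adjusted p of 0.0542 by edgeR, or 0.0305 with the replicate block, and from 0.0125 to 0.215 over the alternatives.

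Odc1 mRNA was at 0.0591, 0.0986 and 0.0745 of the Oaz1 level (TPM over TPM) in the PGE2 libraries, against 0.0311, 0.0440 and 0.0330 in the vehicle libraries. The groups did not overlap, with mean log2 ratios of -3.72 ± 0.37 with PGE2 and -4.80 ± 0.26 with vehicle (SD, n = 3 each). The difference of 1.08 had p = 0.1 in a two-sided exact permutation test, the smallest value 3 against 3 libraries can give, and 0.15 after Benjamini-Hochberg adjustment over the 3 ratios tested. The ratio was higher with PGE2 in 3 of 3 numbered pairs, by 0.92, 1.16 and 1.17 on the log2 scale.

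**Figure D3:**
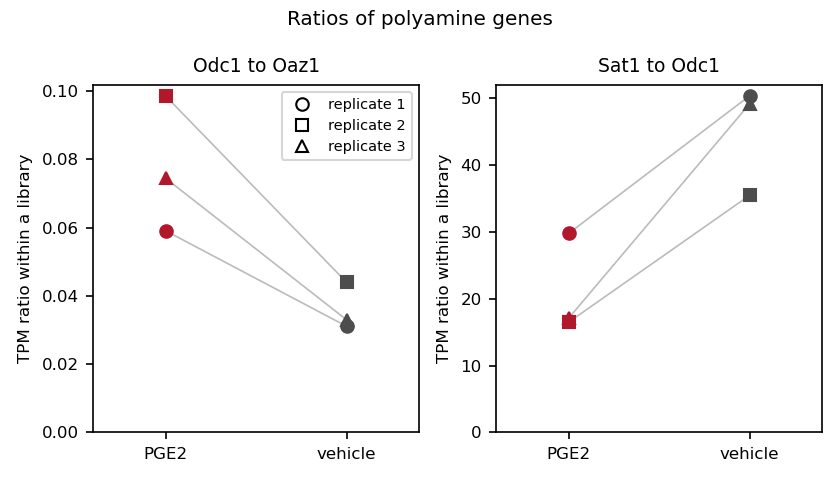
Ratio of the levels in TPM of Odc1 to Oaz1 and of Sat1 to Odc1 in each library, on linear axes from 0, with lines joining libraries of the same replicate number. For Odc1 to Oaz1 the 3 PGE2 libraries (0.0591 to 0.0986) lie above the vehicle libraries (0.0311 to 0.0440), and for Sat1 to Odc1 they lie below them (16.5 to 29.8 against 35.5 to 50.4).

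Spermidine and spermine are made by adding aminopropyl groups to putrescine, and S-adenosylmethionine decarboxylase, encoded by Amd1, makes the donor of these groups. Amd1 (gene 11702, chr10:40287458-40302188, minus strand) had 40.8, 48.0 and 43.6 CPM with PGE2, against 31.1, 33.2 and 30.3 CPM with vehicle. The groups did not overlap, and the paired log2 differences were 0.39, 0.53 and 0.53. The means were 44.1 ± 3.63 CPM with PGE2 and 31.5 ± 1.52 CPM with vehicle (SD, n = 3 each). The log2 fold change was 0.49 ± 0.09 (SE), with an adjusted p of 0.00699 by edgeR. In limma's test on log2(TPM + 1), a scale on which the median over all genes was -0.06, it was 0.35 with an adjusted p of 0.0561, the only alternative in which Amd1 did not pass. The near-identical Amd2 and several pseudogenes could share its reads, and with their reads summed to those of Amd1 the log2 fold change was 0.50 and edgeR's adjusted p 0.00548.

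Spermidine synthase and spermine synthase use that donor, and their mRNAs had the lowest levels of the genes tested. Srm (gene 20810, chr4:148591513-148594619, plus strand) had 2.49, 3.56 and 3.52 CPM with PGE2, against 2.29, 2.89 and 3.79 CPM with vehicle. The highest library was a vehicle library, and the log2 fold change was 0.09 ± 0.26 (SE), with an adjusted p of 0.836 by edgeR. Its sign turned without vehicle replicate 1 (-0.06) and on TPM (-0.003). Sms (gene 20603, chrX:157443851-157492287, minus strand) had 16.2, 14.5 and 18.0 CPM with PGE2, against 15.1, 16.3 and 15.02 CPM with vehicle. Both the lowest and the highest library were PGE2 libraries, and the log2 fold change was 0.07 ± 0.12 (SE), with an adjusted p of 0.701 by edgeR and a value of -0.04 on TPM. These p-values do not show that the groups were alike.

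Sat1 acetylates spermidine and spermine, which marks them for export or for conversion back to shorter polyamines. Sat1 (gene 20229, chrX:155213126-155216449, minus strand) had 782, 909.5 and 772.5 CPM with PGE2, against 582, 662 and 719.7 CPM with vehicle. The groups did not overlap in CPM, but they did in TPM, where PGE2 replicate 3 (798 TPM) was below vehicle replicate 3 (875 TPM). The log2 fold change was 0.33 ± 0.11 (SE), with an adjusted p of 0.0611 by edgeR, so it did not pass. With the replicate block it passed, at 0.33 and an adjusted p of 0.0251, and adjusted p ranged from 0.0114 to 0.209 over the alternatives. With the block, 6 of the 8 genes rose, where 16.6% of all genes tested did. Sat1 mRNA was at 29.8, 16.5 and 17.1 times the Odc1 level (TPM over TPM) with PGE2, against 50.4, 35.5 and 49.2 times with vehicle. The log2 ratio was 4.34 ± 0.48 with PGE2 and 5.47 ± 0.28 with vehicle (SD, n = 3 each), a difference of -1.12 with p = 0.1 in the two-sided exact permutation test (0.15 adjusted over the 3 ratios) and lower in 3 of 3 pairs. A paired exact permutation test gave p = 0.25 for this ratio and for that of Odc1 to Oaz1, the smallest value 3 pairs can give.

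**Figure D4:**
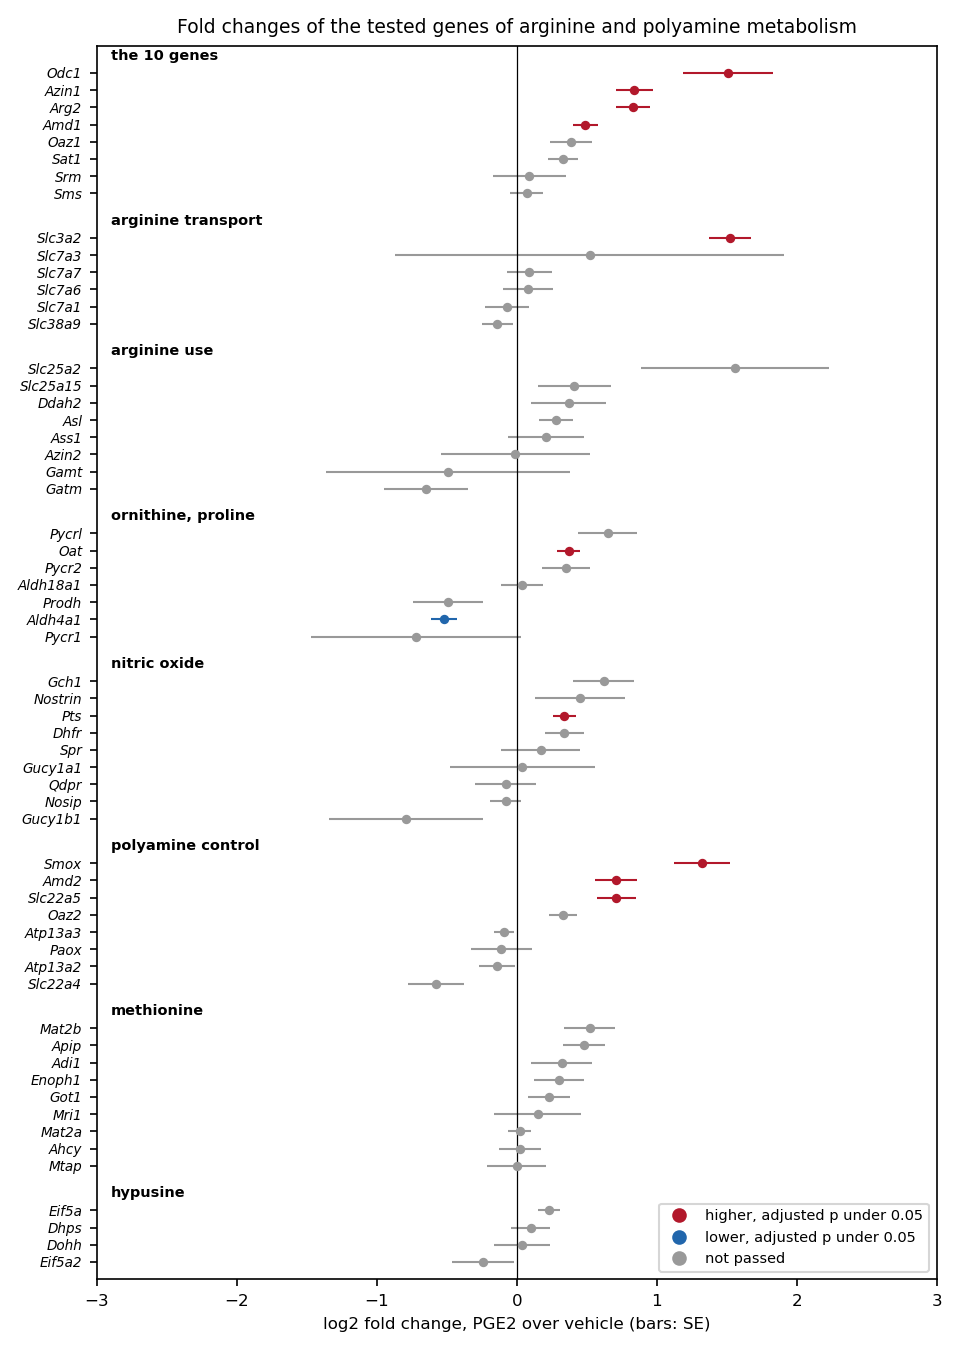
Log2 fold change of PGE2 over vehicle with its standard error for the genes described here and the other pathway genes tested, by list, with the call of edgeR's test marked. Slc3a2 (1.52), Odc1 (1.51) and Smox (1.32) have the highest values among the genes that passed, and Aldh4a1 (-0.52) is the gene that fell.

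Around these 10 genes, 62 others of the same pathways were listed in 7 groups. All 62 were in the table and 51 were tested: 6 rose, 1 fell and 44 did not pass. Of all genes tested 10.3% rose, a share close to that of the 51, and 14.5% fell, a larger share than among the 51. Their median log2 fold change was 0.15, against 0.04 over all genes tested. Every PGE2 library was above every vehicle library in 15 of the 51 and below in 4 of the 51, which held for 20.5% and 21.8% of all genes. With the replicate block 14 of the 51 rose and 3 of the 51 fell, where 16.6% of all genes rose and 18.9% fell. Of the 11 not tested, Ddah1, Agmat, Otc, Nos1, Nos3 and Satl1 had no read in any library, so that no nitric oxide synthase was measurable outside the reads of Nos2 described above.

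In arginine transport, 1 of 6 tested genes rose and none fell, with a median log2 fold change of 0.08. Slc3a2, the heavy chain that carries several amino acid transporters to the cell surface, had 236.5, 316 and 254.6 CPM with PGE2, against 80.4, 112.5 and 88.2 CPM with vehicle. The groups were far apart, at a log2 fold change of 1.52 ± 0.15 (SE) and an adjusted p of 0.000469 by edgeR. Replicate 2 was the highest and replicate 1 the lowest in both groups, as for the red cell markers, whose part was not tested. Of the genes for arginine resynthesis, methylarginine breakdown and other arginine users, none of 8 tested passed, with a median of 0.24. The most abundant of them, Asl (argininosuccinate lyase, which releases arginine), averaged 30.9 ± 3.90 CPM with PGE2 and 25.5 ± 2.22 CPM with vehicle (SD, n = 3 each). Its log2 fold change was 0.28 ± 0.12 (SE), with an adjusted p of 0.134 by edgeR, and of 0.0426 with the replicate block.

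Ornithine can also be made into proline, or arise from it, and in that group 1 of 7 tested genes rose and 1 fell (median 0.04). Oat, the aminotransferase that links ornithine to this route, had 48.6, 50.04 and 46.8 CPM with PGE2, against 36.9, 36.6 and 39.1 CPM with vehicle. The groups did not overlap, at a log2 fold change of 0.37 ± 0.08 (SE) and an adjusted p of 0.0114 by edgeR, which was 0.0577 without vehicle replicate 2 and 0.153 in limma's test on log2(TPM + 1). Aldh4a1, which completes the breakdown of proline to glutamate, had 16, 17.04 and 16.6 CPM with PGE2, against 23.6, 24.5 and 23.3 CPM with vehicle. It fell by 0.52 on the log2 scale, with an SE of 0.09 and an adjusted p of 0.00483 by edgeR. In the nitric oxide group, 1 of 9 tested genes rose and none fell (median 0.17). That gene was Pts, which acts in the synthesis of tetrahydrobiopterin, the cofactor of nitric oxide synthases and of other enzymes. It averaged 123.1 ± 6.5 CPM with PGE2 and 97.1 ± 5.49 CPM with vehicle (SD, n = 3 each), with no overlap. Its log2 fold change was 0.34 ± 0.08 (SE), with an adjusted p of 0.0182 by edgeR, which was 0.0628 without PGE2 replicate 2, 0.0606 without vehicle replicate 2 and 0.108 in limma's test on log2(TPM + 1).

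In polyamine control, back-conversion and transport, 3 of 8 tested genes rose and none fell, with a median of 0.12. Smox, spermine oxidase, which turns spermine back into spermidine, had 265, 448.6 and 329 CPM with PGE2, against 113.5, 157 and 146 CPM with vehicle. Replicate 2 was the highest and replicate 1 the lowest in both groups, as for Odc1 and the red cell markers. The groups did not overlap, and the part of red cells was not tested. The log2 fold change was 1.32 ± 0.20 (SE), with an adjusted p of 0.00275 by edgeR; Smox overlaps Gm30679 on the other strand. Amd2, the copy of Amd1, averaged 9.57 ± 1.25 CPM with PGE2 and 5.83 ± 0.449 CPM with vehicle (SD, n = 3 each). Its log2 fold change was 0.71 ± 0.15 (SE), with an adjusted p of 0.0114 by edgeR and of 0.0618 in limma's test on log2(TPM + 1), and no source used here says how reads were divided between it and Amd1. Slc22a5, best known as the carnitine transporter, had 8.23, 7.90 and 8.48 CPM with PGE2, against 5.17, 4.86 and 4.97 CPM with vehicle. Its log2 fold change was 0.71 ± 0.14 (SE), with an adjusted p of 0.0066 by edgeR and of 0.089 in limma's test on log2(TPM + 1).

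The methionine cycle supplies S-adenosylmethionine to Amd1, and none of its 9 tested genes passed (median 0.23). Mat2b, the regulatory subunit of the enzyme that makes S-adenosylmethionine, averaged 91.7 ± 20.3 CPM with PGE2 and 63.8 ± 10.6 CPM with vehicle (SD, n = 3 each). Its log2 fold change was 0.52 ± 0.18 (SE), with an adjusted p of 0.0686 by edgeR, of 0.00326 with the replicate block and of 0.0201 without PGE2 replicate 1. Spermidine also provides the hypusine residue of the translation factor Eif5a, and none of 4 tested genes in this group passed (median 0.07). Eif5a itself averaged 334 ± 8.32 CPM with PGE2 and 285 ± 18.5 CPM with vehicle (SD, n = 3 each), with a log2 fold change of 0.23 ± 0.08 (SE) and an adjusted p of 0.0703 by edgeR, or 0.0387 with the replicate block.

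**Figure D5:**
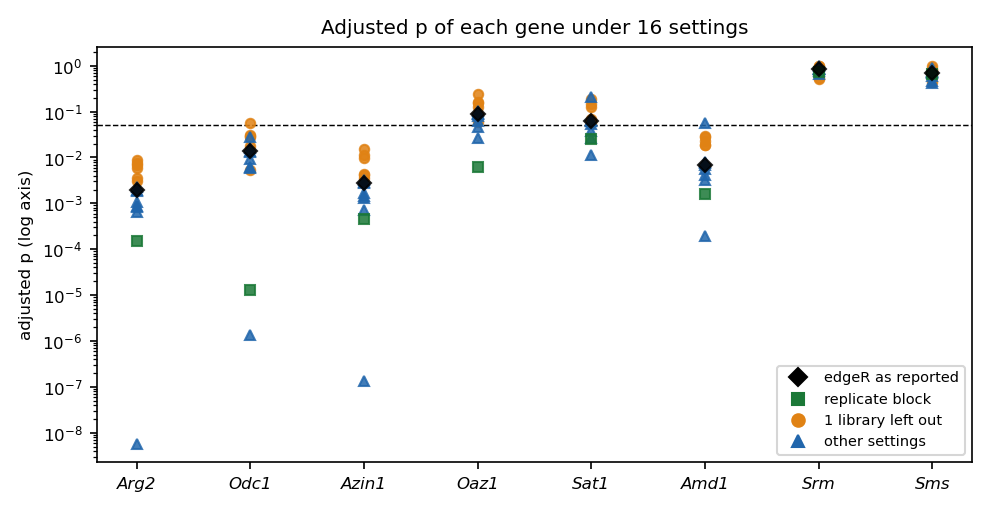
Adjusted p, on a log axis, of each of the 8 genes tested under the 16 settings (the test as described and 15 alternatives), with a dashed line at the threshold of 0.05. Arg2 and Azin1 are below the line under every setting, Odc1 and Amd1 under all but 1 each, and Oaz1 and Sat1 lie on both sides of it.

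The choice of scaling moved how many genes were called in each direction. Of all calls, 41.5% were higher with PGE2 after TMM scaling, 55.5% after scaling by library totals alone and 30.1% in limma's test on log2(TPM + 1). Among the 8 genes, 4 rose after TMM scaling, 6 with library totals (13.8% of all genes), 6 with DESeq2's Wald test (12.4%), 5 with a filter of 50 reads (14.3%) and 3 on TPM (7.69%), and none fell under any of these.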

How the data were processed

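Poly(A) RNA libraries of the 6 samples were analysed from a gene table of the whole series that the authors deposited. Its read columns hold estimated counts per gene, deposited as whole numbers and, as taken here, without normalization. The deposit's own label calls them normalized counts. They were treated as estimated counts without normalization because they are whole numbers whose totals differ between libraries. Its TPM columns hold the authors' TPM values. StringTie 2.1.3b, STAR, Bowtie2, RSEM and DESeq2 and the build mm10 are named in the submitters' processing notes; the tool that made the counts and the use of strand are not given in the sources used here. Another 18 columns, of 6 libraries without labels here, were not used. The members and all gene lists were chosen with earlier results of these data known.

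From the deposited counts, edgeR 4.0.16 (R 4.3.3; TMM, robust quasi-likelihood test, no block, at least 10 reads in at least 3 libraries) tested PGE2 over vehicle, with Benjamini-Hochberg adjustment over 15947 genes; the biological coefficient of variation was 22.4%. CPM were computed from these counts. DESeq2 1.42.0 and limma 3.58.1 on log2(TPM + 1), for genes of at least 1 TPM in 3 libraries, were alternatives, besides other scalings and filters, leaving out each library and the replicate block. The scripts were tested on simulated data. Replicates of a group correlated at 0.961 to 0.981 and differed beyond sampling noise. Same-numbered PGE2 and vehicle libraries deviated together from their group means (correlations of 0.258, 0.174 and 0.187, against -0.166 to 0.0019 for other numbers), and the numbers were taken as pairs for the alternative with the replicate block, while the tests reported first are unpaired. Named are all 10 members, of each other pathway list up to 4 genes that passed and the most abundant one, and of each marker list the 2 most abundant; genes most like Arg1 in pattern were not sought, since only 2 libraries had reads, and other names were chosen after their values were seen. Positions of 96.4% of genes were the same as RefSeq's for GRCm38.p6. Protein sequences were not used here.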

Additional observations from a re-analysis of the deposited data

How the results depend on the processing

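Among the 8 tested members, 4 rose, and 6 did with the replicate block, with library totals and with DESeq2's Wald test, 5 with a filter of 50 reads, 3 with limma on log2(TPM + 1), and 3 to 4 with a library left out; none fell under any of the 15 alternatives. Among the 51 pathway genes, 6 rose, against 14 with the block, 13 with library totals, 12 with DESeq2, 10 with the filter of 50 reads, 2 on TPM, and 4 to 7 with a library left out; 1 fell, against 3 with the block, 2 with DESeq2, and 1 to 2 with a library left out (2 without vehicle replicate 3). Over all genes 1636 rose, against 2651 with the block, 971 on TPM and 1013 to 1541 with a library left out (1013 without vehicle replicate 2 and 1061 without PGE2 replicate 2). As shares of all genes tested, 10.3% rose, against 16.6% with the block, 13.8% with library totals and 12.4% with DESeq2. The share was 14.3% with the filter of 50 reads and 7.69% on TPM. Of all genes tested 14.5% fell, against 18.9% with the block. The log2 ratio of Arg2 to Arg1 (0.36) ranged from -0.29 to 1.33 with a library left out. Of 449 values of single genes under the alternatives, 406 kept their direction and their side of the threshold, 19 passed only there, 18 passed no longer and 6 changed sign: Srm (0.30 without vehicle replicate 3) at -0.06 without vehicle replicate 1 and -0.003 on TPM, Sms at -0.04 on TPM, Top2a at -0.09 and Mki67 at -0.13 without vehicle replicate 2, and Mki67 at -0.06 when PGE2 replicate 1 was left out (its highest value was 0.34, when vehicle replicate 1 was). The replicate block changed the calls of Oaz1, Sat1, Asl, Mat2b, Eif5a, the red cell genes and Prg2, given beside their values, and no other call of a gene chosen by the naming rule. The causes were not tested. Reads summed with related copies, and edgeR without robust estimation, were chosen after seeing the data and changed no call among the 8 members. Arg1 and Nos2 had too few reads to be tested, in 2 libraries and 1 library of 6, each of them a replicate 1. PGE2 replicate 1 held 48396252 reads in total, fewer than PGE2 replicates 2 and 3 (53730915 and 56238941), which had none of either gene.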

Other observations

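Several related copies of the members had reads of their own. The Oaz1 pseudogene Oaz1-ps had 2740, 3305 and 3508 reads with PGE2, against 1726, 1953 and 2398 reads with vehicle, and Sms-ps had 88, 87 and 82 reads with PGE2, against 47, 34 and 48 reads with vehicle. With Sms-ps added, the log2 fold change of Sms was 0.12 at an adjusted p of 0.468 by edgeR, and with Oaz1-ps added that of Oaz1 was 0.39 at 0.0797.

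Some pathway genes did not pass in the test as described but did with the replicate block. They include Gch1, the first enzyme of tetrahydrobiopterin synthesis (log2 fold change 0.60, adjusted p 0.0105 by edgeR), and, as lower with PGE2, Gatm, which makes the creatine precursor from arginine (-0.65, adjusted p 0.00492), and Slc22a4 (-0.57, adjusted p 0.0041). In the test as described their adjusted p was 0.0797, 0.157 and 0.0666, and it ranged over the alternatives from 0.0105 to 0.23 for Gch1, from 0.00492 to 0.415 for Gatm and from 0.0041 to 0.203 for Slc22a4.

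The most abundant markers of other cells had these log2 fold changes with their SE and adjusted p in edgeR's test. The eosinophil genes Epx and Prg2 had -1.98 ± 0.44 (0.0167) and -1.09 ± 0.29 (0.0297). The B cell genes Cd79a and Cd79b had 0.80 ± 0.13 (0.00364) and 0.77 ± 0.18 (0.0176). The monocyte and macrophage genes Ccr2 and Adgre1 had -0.21 ± 0.15 (0.354) and -0.97 ± 0.20 (0.0107), while 5 of the 8 genes of that list had a positive value and their median was 0.35; among these, C1qa (1.09) and C1qb (1.63) averaged 0.965 and 1.05 CPM with PGE2 and 0.446 and 0.331 CPM with vehicle and did not pass. The globin genes Hbb-bs and Hba-a1 passed only with the replicate block, at 1.43 (0.000286) and 1.36 (0.000456). Other settings took several of these over the threshold: Epx without PGE2 replicate 2 (0.0511) or 3 (0.0551), Prg2 without PGE2 replicate 2 (0.0864) or 3 (0.0925) and with the replicate block (0.112), and Cd79b without vehicle replicate 1 (0.0618) or 2 (0.0679).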
